A study of Mus musculus with 14 samples.

Results

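The genes followed here are the zinc exporters Slc30a1, Slc30a4, Slc30a5, Slc30a6, Slc30a7 and Slc30a9, the metallothioneins Mt1 and Mt2, and the zinc sensor Mtf1, 9 of the 56941 genes in a count table of mouse aortic valve leaflets. They were listed by name and chosen by their differences between groups in earlier results of the same 14 libraries, which are the normalized counts given below, so these differences between groups are given as descriptions with no p-value, and the calls that the fits over all genes made among them are listed with nothing read from them. All 9 passed the filter on low counts, a mean of at least 10 reads per library, which 19145 genes passed. The study asked how angiotensin II (AngII), a hormone that raises blood pressure and drives fibrosis, alters the aortic valve, and whether LY272015 (LY), an antagonist of the serotonin receptor HTR2B, alters that response.

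All mice are labelled C57BL/6 wild type, and the study describes them as C57BL/6J, male and 8 weeks old at the start, and all ate the Breslow Western Diet. The 4 Ctrl mice were untreated. The 2 LY mice received LY272015 alone at 3 mg/kg, the 4 AngII mice received AngII at 1000 ng/kg/min for 28 days from an osmotic minipump, and the 4 AngII+LY mice received both. Every AngII and AngII+LY mouse is labelled as collected 48 h after the pump was taken out, while the study's methods describe pump removal for a subset of such mice, so whether the infusion had ended in all of them is not settled by the sources. The labels of LY 2, AngII+LY 2, AngII+LY 3 and AngII+LY 4 carry compound numbers that run upward from LY272015 and were placed by their titles. The sources differ on the dosing interval, giving every other day in one place and a schedule of 2 injections a week in another.

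Zinc reaches the cytosol through importers of the SLC39 family and leaves it through most exporters of the SLC30 family, which pump it out of the cell or into the Golgi and vesicles, while Slc30a9 is known for moving zinc out of mitochondria. Metallothioneins are small cysteine-rich proteins that bind the zinc that stays in the cytosol, and Mtf1 is the transcription factor that senses free zinc and switches on metallothioneins and Slc30a1 through metal response elements in their promoters. In valves and other calcifying tissues, zinc is also a cofactor of enzymes such as alkaline phosphatase, which acquire it in the secretory pathway from SLC30 transporters.

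The promoters are shown because members of the group are textbook targets of Mtf1 and because members did not move together in these data. Each run covers 250 bases before to 50 bases after the start of the canonical transcript, read 5′ to 3′ on the gene's strand from the GRCm39 genome with the GENCODE annotation. Capitals mark every match to TGCACNC or TGCGCNC, the core letters of the metal response element, searched on both strands, and no match overlapped another. A match on the opposite strand appears as its reverse complement. The windows are chr8:94905460-94905759 on the plus strand for Mt1, chr8:94898882-94899181 on the plus strand for Mt2, chr1:191638593-191638892 on the plus strand for Slc30a1 and chr2:122544796-122545095 on the minus strand for Slc30a4.
Mt1: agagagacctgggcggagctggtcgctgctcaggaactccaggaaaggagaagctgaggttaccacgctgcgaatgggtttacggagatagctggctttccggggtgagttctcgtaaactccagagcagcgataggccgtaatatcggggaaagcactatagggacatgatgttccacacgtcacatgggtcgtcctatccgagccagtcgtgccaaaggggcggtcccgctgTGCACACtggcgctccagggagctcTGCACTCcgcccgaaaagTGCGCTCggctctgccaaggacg
Mt2: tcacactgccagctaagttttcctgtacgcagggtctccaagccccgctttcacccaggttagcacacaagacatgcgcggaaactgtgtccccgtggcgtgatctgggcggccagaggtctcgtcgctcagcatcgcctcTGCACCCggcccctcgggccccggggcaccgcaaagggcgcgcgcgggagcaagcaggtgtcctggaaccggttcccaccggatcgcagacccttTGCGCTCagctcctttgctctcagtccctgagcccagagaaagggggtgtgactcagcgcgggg
Slc30a1: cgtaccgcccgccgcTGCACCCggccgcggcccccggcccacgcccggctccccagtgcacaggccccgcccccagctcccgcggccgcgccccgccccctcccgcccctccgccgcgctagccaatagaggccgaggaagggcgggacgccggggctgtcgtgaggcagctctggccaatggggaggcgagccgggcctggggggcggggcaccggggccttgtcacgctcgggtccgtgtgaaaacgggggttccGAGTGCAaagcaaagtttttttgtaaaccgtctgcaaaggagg
Slc30a4: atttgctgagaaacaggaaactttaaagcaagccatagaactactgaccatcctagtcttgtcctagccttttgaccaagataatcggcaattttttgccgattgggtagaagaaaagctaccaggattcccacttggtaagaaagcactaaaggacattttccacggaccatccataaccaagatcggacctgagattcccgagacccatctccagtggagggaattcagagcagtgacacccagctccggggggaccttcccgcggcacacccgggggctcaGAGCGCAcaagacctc

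The Mt1 window held 3 matches, and 1.98% of 21770 protein-coding windows of the same length held at least 3. The windows of Mt2 and Slc30a1 held 2 each, and 7.14% of all windows held at least 2. Those of Slc30a4 and Slc30a5 held 1 each, and 27.4% of all windows held at least 1. No match was found in the windows of Slc30a6, Slc30a7, Slc30a9 and Mtf1. These are matches of letters in these windows only, and matches beyond either end were not counted. Each window was set by an annotated start, which was not checked against the start used in these valves.

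The libraries held between 20990655 and 73128220 counts, and AngII 4 was the smallest. AngII 3 and AngII 4 stood apart from the other libraries. Mitochondrial genes took 24.7% and 25.5% of their counts, while Ctrl mice gave 4% to 7.52%, LY mice 8.62% and 9.76%, AngII 1 and AngII 2 11% and 9.83%, and AngII+LY mice 10.1% to 20.2%. The mean GC content of their counts was 45.38% and 44.73%, where every other library lay between 46.59% and 49.27%. The differences of the 9 genes that rest on these libraries are therefore also given without both, and after a correction of each library's counts for the GC content of the genes. The labels name no batch.

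Values below are TMM-normalized counts, that is, counts scaled for library size and composition, unless a per-kilobase level is named. Slc30a4, which encodes a transporter that loads zinc into vesicles of the endosomal and secretory pathway and is known for supplying zinc to milk, had, as fitted, the largest difference between AngII and Ctrl among the 9 genes. After the GC correction that of Mt2 was larger, at 1.91 against 1.27 on the log2 scale. Its normalized counts were 1212, 931, 1026 and 1747 in the 4 Ctrl mice. They were 2826, 3237, 3813 and 6972 in the AngII mice and 1126, 1438, 1536 and 1012 in the AngII+LY mice. Every AngII mouse lay above every mouse of the other groups, and the AngII+LY mice lay within the range of the Ctrl mice. LY alone gave 1309 and 2068. In bulk tissue such as these leaflets, fewer cells of a type and less RNA per cell cannot be told apart.

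Slc30a4 was 3.42-fold higher in AngII than in Ctrl, a log2 difference of 1.77 ± 0.30 (SE), and 1.72 ± 0.30 lower on the log2 scale in AngII+LY than in AngII, a ratio of 0.304. Without AngII 3 and AngII 4 the log2 differences were 1.30 ± 0.28 and -1.25 ± 0.28, and after the GC correction they were 1.27 ± 0.24 and -1.27 ± 0.24. AngII+LY against Ctrl gave 0.06 ± 0.30, and LY against Ctrl gave 0.46 ± 0.36. AngII against Ctrl and AngII+LY against AngII share the AngII mice, so a high AngII value enters both.

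Slc30a4 levels followed the base composition of the libraries. Across the 14 libraries the log2 level had a Pearson r of -0.80 with the mean GC content of a library's counts and of -0.61 within groups, where both values of a point come from 1 library, and 42.8% of the bases of Slc30a4 exons are G or C, the 16.5th percentile of the genes tested. The part of base composition in the differences of Slc30a4 was not tested.

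**Figure D1:**
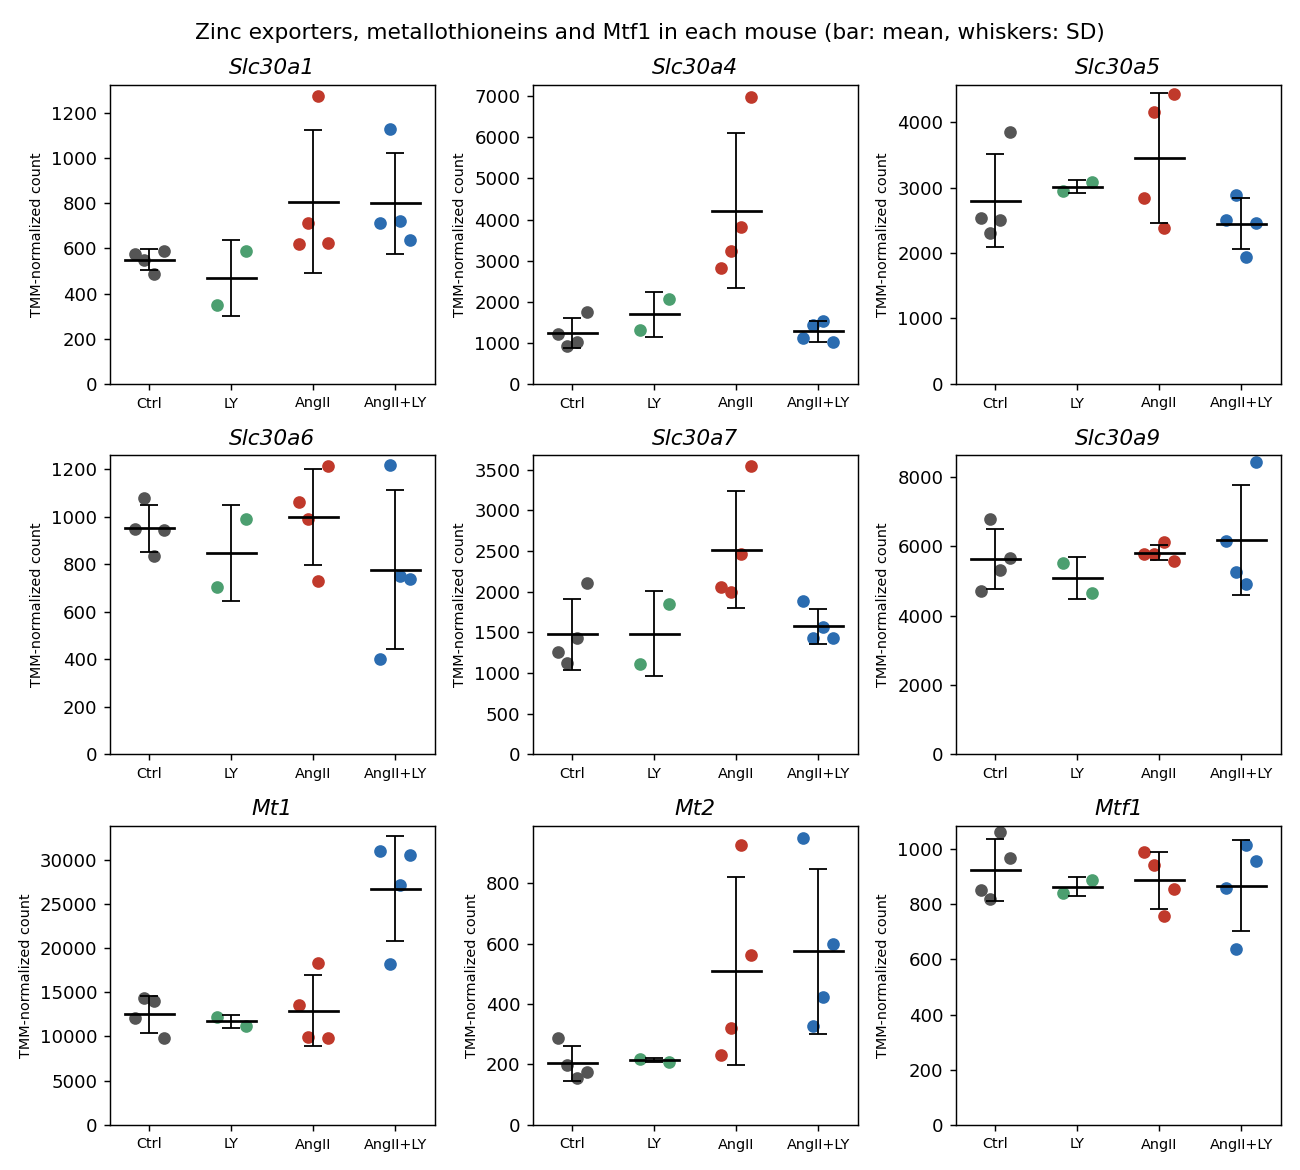
TMM-normalized counts (vertical axes, each from 0) of the 9 genes in each of the 14 mice (points) by group, with the group mean (bar) and SD (whiskers). Slc30a4 is high in all 4 AngII mice (2826 to 6972), and Mt1 is high in the AngII+LY mice (18194 to 30939).

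Slc30a7, which encodes a transporter of the early secretory pathway that carries zinc into the Golgi, had, as fitted, the next largest difference between AngII and Ctrl among the exporters. Its normalized counts were 1255, 1123, 1425 and 2108 in Ctrl, 2054, 1999, 2460 and 3547 in AngII, and 1887, 1425, 1561 and 1430 in AngII+LY. Ctrl 4 lay above AngII 1 and AngII 2, so the Ctrl and AngII ranges overlapped, while the highest AngII+LY mouse was below the lowest AngII mouse. The log2 differences were 0.77 ± 0.25 for AngII against Ctrl and -0.67 ± 0.25 for AngII+LY against AngII. Without AngII 3 and AngII 4 they were 0.46 ± 0.27 and -0.36 ± 0.27, and after the GC correction 0.28 ± 0.18 and -0.27 ± 0.18, so that Slc30a1 (0.46) and Slc30a9 (-0.41) then differed more between AngII and Ctrl. Of the exon bases of Slc30a7, 71.9% are free of other annotated genes. It overlaps Dph5, Extl2 and 2 pseudogenes on the opposite strand, and whether the counting used strand is not given in the sources used here.

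Slc30a5 and Slc30a6 encode partners in a complex that loads zinc into enzymes in the early secretory pathway. Slc30a5 had normalized counts of 2540, 2312, 2502 and 3858 in Ctrl, of 2843, 4160, 2384 and 4427 in AngII and of 2511, 2882, 1942 and 2463 in AngII+LY. Its groups overlapped in every comparison. The log2 difference was 0.30 ± 0.23 in AngII against Ctrl and -0.49 ± 0.23 in AngII+LY against AngII, and after the GC correction -0.08 ± 0.20 and -0.17 ± 0.20. Without AngII 3 and AngII 4 they were 0.32 ± 0.24 and -0.52 ± 0.24. Slc30a6 ranged from 729 to 1214 normalized counts in AngII, from 833 to 1077 in Ctrl and from 401 to 1217 in AngII+LY, where the lowest and the highest values of the gene were found. The log2 differences of Slc30a6 were 0.07 ± 0.29 in AngII against Ctrl and -0.36 ± 0.29 in AngII+LY against AngII. They were 0.11 ± 0.34 and -0.40 ± 0.34 without AngII 3 and AngII 4. After the GC correction they were -0.28 ± 0.30 and -0.04 ± 0.30, so the direction in AngII against Ctrl depends on that correction. Neither partner set AngII apart from Ctrl or AngII+LY.

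Slc30a1, the exporter of the plasma membrane that removes zinc from the cell, was the other member whose AngII and Ctrl ranges did not overlap. Its normalized counts were 576, 548, 487 and 588 in Ctrl, 620, 711, 1275 and 622 in AngII, and 713, 1129, 721 and 636 in AngII+LY. All 8 mice that received AngII lay above all 4 Ctrl mice, by a margin that for most of them was small. The LY mice had 348 and 586. The log2 difference was 0.55 ± 0.29 in AngII against Ctrl, 0.54 ± 0.29 in AngII+LY against Ctrl and -0.01 ± 0.29 in AngII+LY against AngII. The AngII value rested in part on AngII 3, since it was 0.25 ± 0.26 without that mouse and 0.28 ± 0.29 without AngII 3 and AngII 4. AngII+LY against AngII was then 0.26 ± 0.30. After the GC correction the values of Slc30a1 were 0.46 ± 0.28 in AngII against Ctrl and 0.08 ± 0.28 in AngII+LY against AngII.

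Slc30a9, which encodes the transporter that exports zinc from mitochondria, had the highest level per kilobase of the exporters in Ctrl and, as fitted, the smallest difference between AngII and Ctrl among them. Its normalized counts were 5629 ± 872 (SD, n = 4) in Ctrl, 5083 ± 612 (SD, n = 2) in LY, 5824 ± 225 (SD, n = 4) in AngII. In AngII+LY they were 6189 ± 1579 (SD, n = 4). AngII+LY 4 was the highest, at 8427. The log2 difference was 0.05 ± 0.18 in AngII against Ctrl and 0.09 ± 0.18 in AngII+LY against AngII, and 0.04 ± 0.23 and 0.09 ± 0.23 without AngII 3 and AngII 4. The GC correction turned the first to -0.41 ± 0.21 and gave 0.46 ± 0.21 for the second, so the direction of Slc30a9 in AngII depends on that correction.

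As a group, 6 of 6 exporters had a higher fitted level in AngII than in Ctrl, with a median log2 difference of 0.43 against -0.06 over all 19145 genes tested, and 5 of 6 a lower one in AngII+LY than in AngII, with a median of -0.43 against -0.02. After the GC correction, 3 of 6 were higher in AngII than in Ctrl, with a median of 0.10, and the median in AngII+LY against AngII was -0.11. Exons of Slc30a4, Slc30a5, Slc30a6, Slc30a7 and Slc30a9 lie between the 15.9th and the 22.6th percentile of GC content. Slc30a4 was also set against the mean of the other exporters in the same mouse. This log2 difference was -0.45 ± 0.28 in Ctrl (SD, n = 4), 0.95 ± 0.45 in AngII (SD, n = 4) with a range of 0.60 to 1.59, and -0.41 ± 0.31 in AngII+LY (SD, n = 4) with a range of -0.74 to 0.02. The 2 LY mice had -0.04 and 0.26, above all 4 Ctrl mice, whose highest value was -0.13, and below all 4 AngII mice. The AngII range lay above those of the other groups.

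Most markers of adipocytes, macrophages and smooth muscle had lower fitted levels in AngII than in Ctrl, where the 6 exporters followed here had higher ones. Of 10 adipocyte markers, 10 had a lower fitted level, with a median log2 difference of -1.58. Of 10 macrophage markers 8 did, with a median of -1.42, and of 6 smooth muscle markers 6 did, with a median of -2.96. None of these markers passed edgeR's quasi-likelihood test, with smallest adjusted p-values of 0.0573, 0.0573 and 0.0876, while 6 of each list had an unadjusted p under 0.05 and a lower level, against 11.7% of all genes, and DESeq2 called 3, 6 and 4, all lower, against 13.9% of all genes in either direction. Of the other lists, 5 of 8 endothelial markers (median 0.17), 4 of 5 erythroid markers (median 0.16), 5 of 10 interstitial and fibroblast markers (median -0.01) and 4 of 12 cardiomyocyte markers (median -0.50) had a higher fitted level in AngII. Of 8 lymphocyte markers 1 did (median -1.14), as did 0 of 5 melanocyte markers (median -1.01), and none of the markers in these lists passed in edgeR.

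Summed normalized counts of the macrophage markers, led by Lyz2 with none at 0, were 111061, 84206, 46349 and 28428 in Ctrl and 26204, 31419, 35867 and 49805 in AngII. They were 78228 and 51648 in LY and 33126, 38492, 42475 and 88425 in AngII+LY, and Ctrl overlapped AngII. Those of the smooth muscle markers, led by Acta2 with none at 0, were 444196, 69415, 11640 and 11953 in Ctrl and 11762, 15164, 21952 and 11538 in AngII, so that Ctrl 1 and Ctrl 2 were high and the other Ctrl mice lay among the AngII mice. The LY mice had 9853 and 12457 and the AngII+LY mice 12834, 90898, 14522 and 83928. With these lists Slc30a4 had a Pearson r of -0.55 for macrophages, -0.35 for smooth muscle and -0.53 for adipocytes over the 14 libraries, and of -0.31, -0.18 and -0.43 within groups. The part of these cells in the differences of the exporters was not tested.

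**Figure D2:**
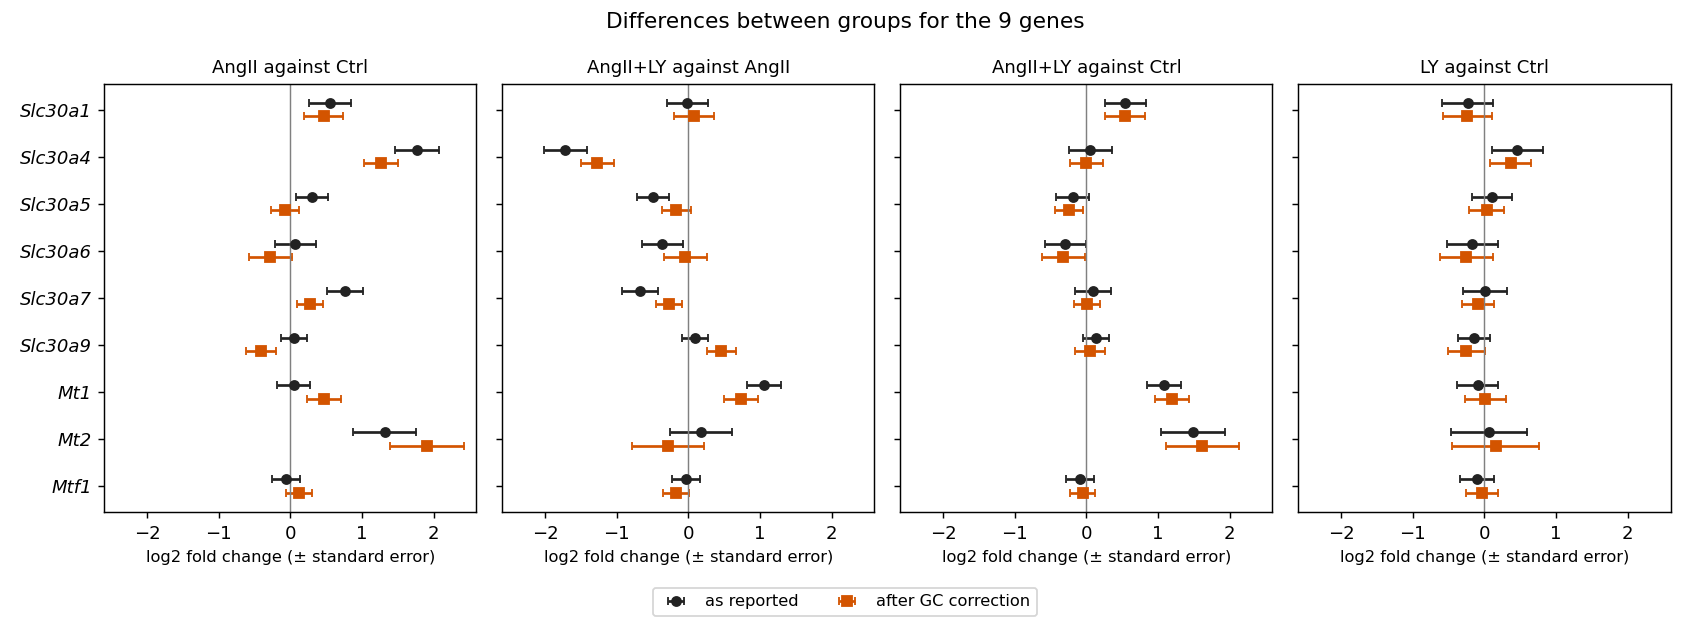
Log2 fold changes with their standard errors (horizontal axes) of the 9 genes in 4 comparisons, as fitted (black circles) and after the correction for GC content (orange squares). The correction moves Slc30a4 from 1.77 to 1.27 and from -1.72 to -1.27, and Slc30a7 from 0.77 to 0.28 and from -0.67 to -0.27.

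Mt1, the more abundant metallothionein, had 12041, 14304, 13994 and 9789 normalized counts in Ctrl and 13580, 9969, 18337 and 9804 in AngII. The AngII and Ctrl ranges overlapped, though AngII 3 lay above every Ctrl mouse, and the log2 difference was 0.04 ± 0.24. In AngII+LY the normalized counts of Mt1 were 30939, 18194, 27133 and 30567. All 4 lay above every Ctrl mouse, and AngII+LY 2 lay just under AngII 3, so that AngII+LY and AngII overlapped by 1 mouse. Mt1 was 2.07-fold higher in AngII+LY than in AngII, a log2 difference of 1.05 ± 0.24, and 2.13-fold higher than in Ctrl, 1.09 ± 0.24. LY alone gave 12245 and 11208, within the Ctrl range. Mt1 in AngII+LY against AngII was 0.73 ± 0.24 after the GC correction and 1.18 ± 0.26 without AngII 3 and AngII 4. In AngII against Ctrl it was 0.47 ± 0.24 after the GC correction and -0.09 ± 0.25 without both libraries.

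Markers of heart muscle moved with Mt1. All 12 listed cardiomyocyte markers, led by Tnnt2 in every library with none at 0, had a higher fitted level in AngII+LY than in AngII, with a median log2 difference of 1.38, against -0.02 over all genes. Their summed normalized counts were 404763, 1609800, 1125472 and 630048 in Ctrl, 1010785 and 837323 in LY, 829744, 398574, 1055972 and 601154 in AngII, and 1582865, 1046297, 2026346 and 2641435 in AngII+LY. In edgeR's quasi-likelihood test 0 of the 12 passed, with a smallest adjusted p of 0.0758, and 10 had an unadjusted p under 0.05 and a higher level, as 10.1% of all genes did. DESeq2 called 6 of the 12, all higher, against 10.9% of all genes in either direction. The log2 level of Mt1 had a Pearson r of 0.83 with these markers across the 14 libraries and of 0.72 within groups, where both values of a point again come from 1 library. At like sums of these markers, 1609800 in Ctrl 2 and 1582865 in AngII+LY 1, Mt1 had 14304 and 30939 normalized counts. AngII 3 (1055972) and AngII+LY 2 (1046297), also alike, had 18337 and 18194. LY 1 (1010785) and Ctrl 3 (1125472), whose sums lay near these, had 12245 and 13994. The part of heart muscle in the Mt1 difference was not tested.

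Markers of valve interstitial cells and fibroblasts moved the other way. All 10 listed markers, with Dcn the most abundant and none at 0 in any library, had a lower fitted level in AngII+LY than in AngII, with a median log2 difference of -0.97. Their summed normalized counts were 792869, 428276, 414770 and 782707 in Ctrl, 503083 and 861097 in LY, 660579, 748444, 634642 and 677125 in AngII, and 408418, 302218, 372620 and 247560 in AngII+LY. Every AngII+LY mouse was below every other mouse in this sum. In edgeR's quasi-likelihood test 0 of the 10 passed, with a smallest adjusted p of 0.0588, and 7 had an unadjusted p under 0.05 and a lower level, as 12.4% of all genes did. DESeq2 called 6 of the 10, all lower, where it called 10.9% of all genes. Mt1 had a Pearson r of -0.78 with these markers across the 14 libraries and -0.30 within groups, and Slc30a4 one of 0.40 and 0.21 within groups. The part of these cells in the differences of Mt1 and Slc30a4 was not tested.

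**Figure D3:**
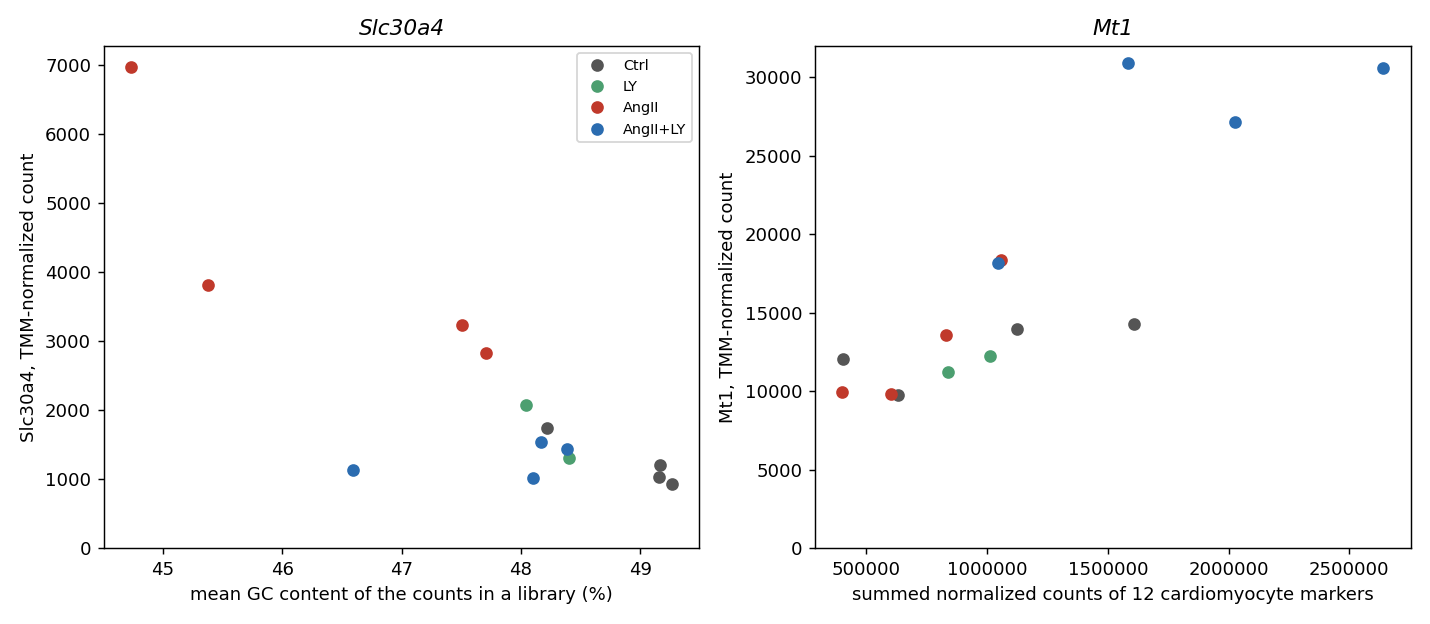
Left, Slc30a4 normalized counts against the mean GC content of each library's counts (%), and right, Mt1 normalized counts against the summed normalized counts of 12 cardiomyocyte markers on a linear axis, with 1 point per mouse coloured by group. AngII 3 and AngII 4 lie at the lowest GC contents (45.38% and 44.73%).

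Mt2, the second metallothionein, had normalized counts of 287, 197, 156 and 175 in Ctrl, 219 and 209 in LY, 232, 321, 926.5 and 562.5 in AngII, and 949, 327, 422 and 599 in AngII+LY. The AngII+LY mice all lay above the Ctrl mice, whereas AngII 1 lay below Ctrl 1. The log2 difference was 1.32 ± 0.44 in AngII against Ctrl, 1.49 ± 0.44 in AngII+LY against Ctrl and 0.17 ± 0.43 in AngII+LY against AngII. Without AngII 3 and AngII 4 the AngII value fell to 0.44 ± 0.42 and the value for AngII+LY against AngII was 1.05 ± 0.45. After the GC correction AngII against Ctrl was 1.91 ± 0.52, and AngII+LY against AngII turned to -0.29 ± 0.50, so the order of AngII and AngII+LY for Mt2 depends on the processing. Mt2 had a Pearson r of 0.84 with the mitochondrial share of counts across the 14 libraries and of 0.80 within groups. The mice with the highest Mt2, AngII+LY 1 and AngII 3, had mitochondrial shares of 20.2% and 24.7%. What sets the mitochondrial share was not tested, nor was the part of that share in the Mt2 difference.

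Adipocyte markers varied with both metallothioneins within groups, though not across all mice. Their Pearson r within groups was 0.72 with Mt1 and 0.79 with Mt2, each point being 1 library, and over the 14 libraries it was -0.07 and -0.20. The summed normalized counts of these 10 markers were 65032, 50170, 55347 and 48571 in Ctrl, 54236 and 39926 in LY, 31730, 22210, 52078 and 32873 in AngII, and 73580, 46530, 59020 and 51827 in AngII+LY. AngII 1, AngII 2 and AngII 4 were the lowest, and AngII+LY 1 the highest. Fabp4 was the most abundant of them in every library, and Lep was at 0 in AngII 1, AngII 4, AngII+LY 2 and AngII+LY 3. In AngII+LY against AngII, 6 of the 10 had a higher fitted level, with a median log2 difference of 0.06. The part of fat cells in the differences of Mt1 and Mt2 was not tested.

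The Mt2 counts are uncertain for a further reason. Of its 950 exon bases, 167 (17.6%) are free of the antisense long noncoding gene Gm45774, which shares 783 bases and had at most 44 counts in a library. The counting rule for shared bases is not known here, so the level of Mt2 against Mt1 is not a measure of how much of each was made. Per base, with Mt1 counts over all Mt1 exon bases and Mt2 counts over the unshared Mt2 bases, Mt1 exceeded Mt2 by 2.34-fold to 12.1-fold in single mice.

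Mtf1, the sensor, differed little between group means. Its normalized counts were 925 ± 112 in Ctrl (SD, n = 4), 864.5 ± 34.6 in LY (SD, n = 2), 886 ± 103 in AngII (SD, n = 4), with 867 ± 165 in the 4 mice of AngII+LY (SD), and its ranges overlapped in every comparison. The log2 difference was -0.06 ± 0.19 in AngII against Ctrl and -0.03 ± 0.19 in AngII+LY against AngII. Leaving out AngII 3 and AngII 4 gave 0.06 ± 0.22 and -0.16 ± 0.22, and after the GC correction 0.12 ± 0.18 and -0.18 ± 0.18.

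No gene passed an adjusted p under 0.05 with an absolute log2 fold change above 0.5 in edgeR's quasi-likelihood test, 0% of the 19145 genes in each of the 4 comparisons, and so 0 of the 9 did. At an unadjusted p under 0.05 it gave 2575 higher and 2240 lower genes in AngII against Ctrl, 1937 and 2378 in AngII+LY against AngII, 937 and 1175 in AngII+LY against Ctrl, and 120 and 146 in LY against Ctrl. DESeq2, the tool the study used, with the same thresholds, called 13.9% of all genes in AngII against Ctrl, and 3 of the 9 (Slc30a4, Slc30a7 and Mt2) were among them. It called 10.9% in AngII+LY against AngII, with 2 of the 9 (Slc30a4 and Mt1), and 1.79% in AngII+LY against Ctrl, with 2 of the 9 (Mt1 and Mt2). In LY against Ctrl it called 0.11% and none of the 9. Calls among the 9 by edgeR also appeared under other settings. They are given beside the number of all genes called under each setting, in the section on how the results depend on the processing. The groups lay apart in the higher direction for 2 of the 9 genes in AngII against Ctrl, where 7.46% of all genes did, and for 3 of the 9 in AngII+LY against Ctrl, where 3.27% did. They lay apart in the lower direction for 2 of the 9 in AngII+LY against AngII, where 5.66% did. The genes were listed with these comparisons known, so nothing is read from these counts.

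Per kilobase of exon, Mt1 stood far above the rest in every group, with 10058 ± 1673 in Ctrl (SD, n = 4) and 21435 ± 4758 in AngII+LY (SD, n = 4) normalized counts per kilobase. Next in Ctrl came Slc30a9 at 359 ± 55.6, Slc30a5 at 248 ± 63.0, Mt2 at 215 ± 61.2 and Slc30a4 at 209 ± 61.8 per kilobase, then Slc30a6 at 160 ± 16.8, Mtf1 at 102 ± 12.3, Slc30a7 at 98.7 ± 29.3 and Slc30a1 at 97.1 ± 7.96. Only the steps from Mt1 to Slc30a9 and from Slc30a6 to Mtf1 had ranges that did not overlap in Ctrl. These levels divide by all exon bases, shared ones included, and Mt2 would stand higher over its unshared bases, so its place against the other genes rests on that choice. In AngII, Slc30a4 moved on this scale from rank 5 to rank 2, at 715 ± 320 per kilobase (SD, n = 4). It was above Mt2 in 3 of 4 mice, and its range overlapped that of Mt2, so their order is not settled by these mice. In AngII+LY, Slc30a4 was at rank 5 again, at 217 ± 42.3 per kilobase (SD, n = 4).

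Among the 9 genes, Slc30a4 and Slc30a7 varied most alike across the 14 libraries, with a Pearson r of 0.88 and of 0.82 within groups. With the mean GC content of a library's counts, r was -0.80 for Slc30a4 and -0.87 for Slc30a7, and -0.61 and -0.77 within groups. The part of base composition in their likeness was not tested. Mt1 and Mt2 had an r of 0.61 and of 0.50 within groups, and Mt1 and Slc30a5 one of -0.73 and of -0.83 within groups. Among 13610 genes that averaged 100 counts or more, the 5 most like Mt1 were Mrps33 (r = 0.94), Mrps14, Mrpl33, Timm8b and Ankrd23, and the 5 most like the mean of the 6 exporters were Gm18284 (r = 0.94), Rab10, Copb2, Mib1 and Zfp935. The 5 most like Slc30a1 were Grpel2 (r = 0.87), Rnf113a2, ENSMUSG00000048406, Tnrc6c and Dnmt3b, and those most like Mtf1 were Dus2 (r = 0.82), Hgf, Katnip, Ccdc77 and Shisal1. Chosen after its values were seen, the 5 most like Slc30a4 were Rmi1 (r = 0.97), Tug1, Erp44, Hnrnpk and Caprin1. Without the 2 libraries farthest from the median of the gene or mean named, r lay between 0.87 and 0.94 for the genes like Mt1, between 0.85 and 0.90 for those like the exporter mean and between 0.90 and 0.99 for those like Slc30a4. It fell to between 0.57 and 0.80 for those like Slc30a1 and to between 0.51 and 0.56 for those like Mtf1, so the likeness to these genes rests in part on those libraries.

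The importers, the SLC39 genes that bring zinc into the cytosol, were the nearest comparison. Of 14 listed, 12 passed the filter and could be tested. In AngII against Ctrl 6 had a higher and 6 a lower fitted level, with a median log2 difference of 0.05 against -0.06 over all genes, and 0 of 12 passed edgeR's quasi-likelihood test. At an unadjusted p under 0.05 there were 3 higher and 1 lower, against 13.4% and 11.7% of all genes. The smallest adjusted p was 0.117, for Slc39a3, an importer of the plasma membrane, at -0.92 ± 0.33, where the 4 AngII mice had 1654, 1833, 830 and 582 normalized counts and the 4 Ctrl mice 2606, 2015, 2558 and 2113. Slc39a6, an importer linked to cell migration, gave 1.11 ± 0.42 with an edgeR adjusted p of 0.125. DESeq2 called Slc39a3 lower (adjusted p = 0.0414) and Slc39a6 higher (adjusted p = 0.0372), 2 of 12 importers against 13.9% of all genes. Slc39a4, an importer of dietary zinc in the gut, gave 1.42 ± 0.63 with an edgeR adjusted p of 0.176. In LY against Ctrl it gave 2.18 ± 0.72 with an edgeR adjusted p of 1.0, and both LY mice lay above all Ctrl mice, as for 1079 of the 19145 genes tested. Slc39a10 gave 0.74 ± 0.34 in AngII against Ctrl with an edgeR adjusted p of 0.19. Without AngII 3 and AngII 4 the differences of AngII against Ctrl were -0.41 for Slc39a3, 0.73 for Slc39a6, 1.07 for Slc39a4 and 0.54 for Slc39a10. After the GC correction they were -0.49, 1.03, 2.01 and 0.13 in the same order.

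In AngII+LY against AngII the importers had 5 higher and 7 lower fitted levels, with a median log2 difference of -0.36 against -0.02 over all genes. None of the 12 passed edgeR's quasi-likelihood test or DESeq2's threshold, and 3 had an unadjusted p under 0.05 in edgeR, all lower, a direction and threshold that 12.4% of all genes met. The smallest edgeR adjusted p was 0.15, for Slc39a9, a Golgi transporter, at -0.54 ± 0.21. Its 4 AngII+LY mice had 1532, 1564, 1528 and 1539 normalized counts, below all other mice, the lowest of which had 1689. Of all genes, 5.66% had every AngII+LY mouse below every AngII mouse. The Slc39a9 difference was -0.57 without AngII 3 and AngII 4 and -0.35 after the GC correction. After that correction 1 of the 12 importers had a higher fitted level in AngII+LY than in AngII and the others a lower one, with a median of -0.28, so their near-even split as fitted does not hold under that correction.

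The other SLC30 genes and metallothioneins were scarce. Slc30a8, Slc30a10 and Mt4 had 0 counts in every library, and Slc30a3 had 9 counts in 1 library. Slc30a2 had 196 counts over all libraries and was counted in 10 of them. Mt3 had normalized counts of 112, 403, 95.1 and 99.8 in Ctrl and of 64.1, 54.5, 50.5 and 13.2 in AngII. Every AngII mouse lay below every Ctrl mouse, as for 1447 of the 19145 genes tested. The log2 difference was -1.94 ± 0.82 with an edgeR adjusted p of 0.162. The LY mice, at 72.9 and 87.5, also lay below every Ctrl mouse, as for 1227 of the genes tested. AngII+LY 4 was apart at 465.5, the other AngII+LY mice lying between 45.0 and 59.0.

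**Figure D4:**
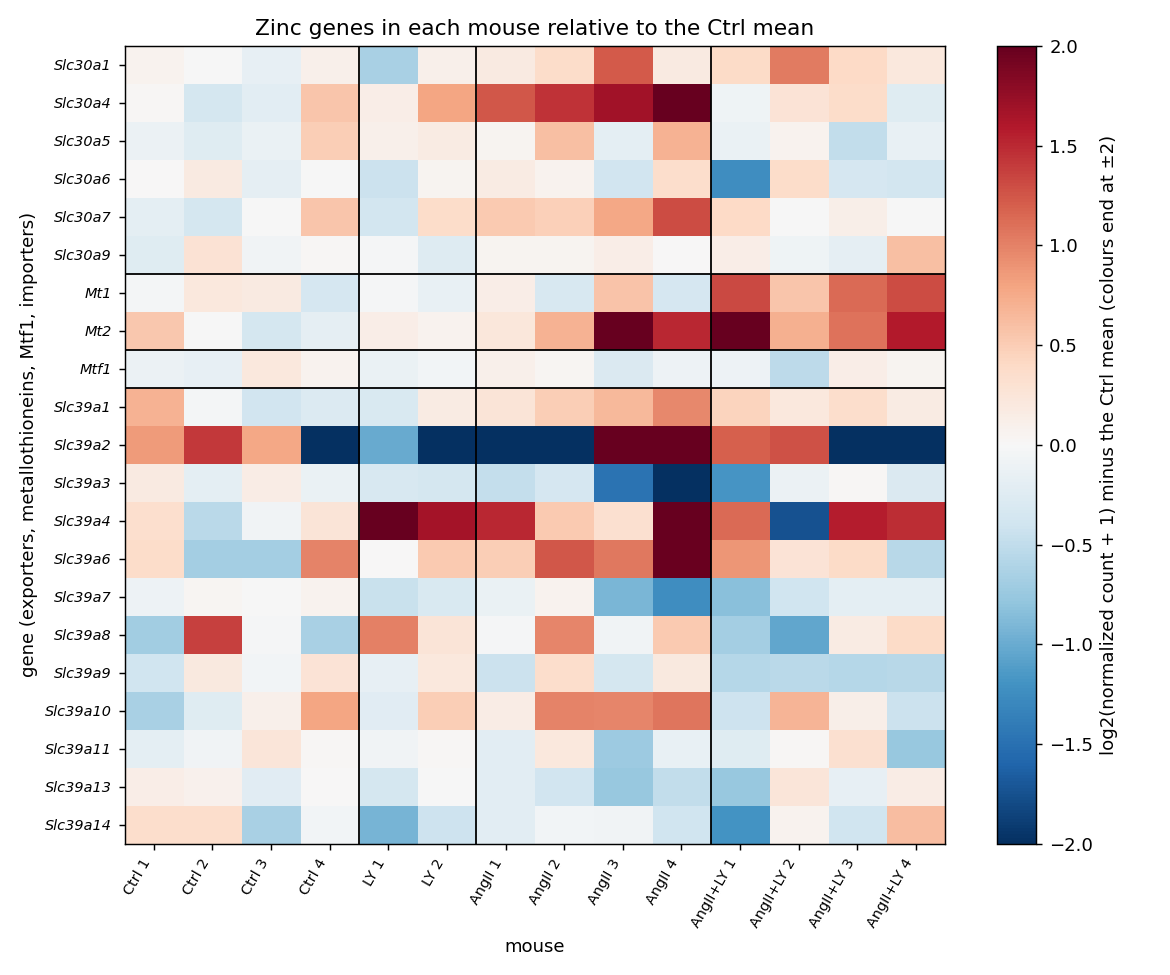
Log2(normalized count + 1) of the 9 genes and the 12 importers (rows) in each mouse (columns), minus the mean of the Ctrl mice, where red is higher and blue is lower and colours end at ±2. Slc30a4 is red in the 4 AngII mice and near 0 in the AngII+LY mice, and Mt1 is red in the 4 AngII+LY mice. Slc39a9 is lower in the AngII+LY mice (1528 to 1564 normalized counts) than in any other mouse.

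Enzymes that acquire zinc in the secretory pathway were read from a list of 5, Alpl, Enpp1, Enpp2, Enpp3 and Nt5e. None passed edgeR's quasi-likelihood test in either comparison, and at an unadjusted p under 0.05 there were 0 in AngII against Ctrl and 1 higher and 2 lower in AngII+LY against AngII, as for 10.1% and 12.4% of all genes. In AngII against Ctrl 2 were higher and 3 lower, with a median log2 difference of -0.36. In AngII+LY against AngII, Enpp1, which makes the mineralization inhibitor pyrophosphate, gave -1.48 ± 0.43 with an edgeR adjusted p of 0.08. Its normalized counts were 1522, 2515, 1697 and 2991 in AngII and 1265, 618, 824 and 416 in AngII+LY, with no overlap between the groups. Of all genes, 5.66% lay apart in that direction. Alpl, the alkaline phosphatase that degrades pyrophosphate, gave 1.61 ± 0.62 with an edgeR adjusted p of 0.151. DESeq2 called both in this comparison, as it did 10.9% of all genes, and none of the 5 in AngII against Ctrl. Exons of Enpp1 lie at percentile 16.5 of GC content and those of Alpl at percentile 91.2. In AngII+LY against AngII all 10 interstitial and fibroblast markers were lower and all 12 cardiomyocyte markers higher. The part of base composition or of these cells in the differences of Enpp1 and Alpl was not tested.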

How the data were processed

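Aortic valve leaflet RNA of 14 mice (4 Ctrl, 2 LY, 4 AngII, 4 AngII+LY) was sequenced. Trimmed reads were mapped by the authors to GRCm39 (HISAT2), and gene totals were made with featureCounts. The deposited table is named as normalized, yet its values are whole-number read counts per gene with unequal totals, and they were treated as counts. Strandedness and the annotation used for counting are not given in the sources used here.

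Groups were taken from sample titles. Symbols, exon lengths, GC content and overlaps came from GENCODE on GRCm39, with 618 genes unmatched. All groups were fitted together in edgeR 4.0.16 (quasi-likelihood, TMM scaling, mean count of at least 10, Benjamini-Hochberg adjustment over 19145 genes, calls at adjusted p below 0.05 with a log2 difference beyond 0.5 in size), in R 4.3.3. Per-mouse log values used a pseudocount of 1. The GC correction fitted a loess curve (span 0.3) of the log counts on gene GC content in each library. DESeq2 1.42.0 was an alternative. The fits were tested on simulated data. Nothing shows that mice within a group were housed or prepared separately, so p-values measure the spread between these samples. The members, gene lists and tests were chosen with earlier results of these data known. Named genes were the 9 members, the importers and list genes with the largest differences or a call, and the 5 genes most like Mt1, Slc30a1, Mtf1 and the exporter mean.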

Additional observations from a re-analysis of the deposited data

Results flagged for a closer look

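The outlier check was run on 63 groups of 4 mice (21 zinc genes), and chance flags about 1 in 20 groups. In Slc30a1, AngII 3 stood away from the other AngII mice, its gap to the nearest taking 0.861 of the range of the group. In Slc30a5, Ctrl 4 stood away from the other Ctrl mice by 0.853 of the range. In the importer Slc39a10, AngII 1 stood away from the other AngII mice by 0.869 of the range.

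For 3 genes every AngII+LY mouse moved one way from the AngII mean while both LY mice moved the other way from the Ctrl mean. The difference between the effect of LY with AngII and without it was -2.18 for Slc30a4, -0.60 for Slc30a5 and 1.14 for Mt1 on the log2 scale. For this difference edgeR called 0 of 19145 genes, and so none of the 3. DESeq2 called 203 of 19145 genes, 81 higher and 122 lower, and Slc30a4 was among them. As these genes were chosen from these data, nothing is read from these calls. The LY arm held 2 mice. LY against Ctrl was -0.10 ± 0.29 for Mt1 as fitted and 0.01 ± 0.29 after the GC correction. For Slc30a5 it was 0.11 ± 0.28 and 0.03 ± 0.25, and -0.006 with the replicate block and GC correction. The directions of Mt1 and Slc30a5 under LY alone therefore depend on the processing.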

How the results depend on the processing

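Under every alternative run, the log2 difference of Slc30a4 lay between 1.25 and 1.99 in AngII against Ctrl and between -1.87 and -1.25 in AngII+LY against AngII, and that of Mt1 in AngII+LY against AngII between 0.73 and 1.26. Genes called by edgeR in AngII against Ctrl numbered 0, by DESeq2 2663, with no filter on low counts 123 and with the newer quasi-likelihood method 555. Of the 9 genes, Slc30a4 was among the 123 and among the 555. Leaving out one mouse at a time gave 0 to 1725, namely 805 without Ctrl 4, 1725 without AngII 1 and 382 without AngII 2. The 805 held Slc30a4 and Slc30a7, the 1725 held Slc30a4 and Mt2, and the 382 held Slc30a4. In AngII+LY against AngII the numbers were 0, 2082, 1 and 176, and leaving out one mouse at a time gave 0 to 844, the highest without AngII 1. Slc30a4 and Mt1 were among the 176 and among the 844. The 9 genes were chosen from these data, so nothing is read from their calls. In AngII+LY against Ctrl the numbers of genes called were 0 by edgeR, 343 by DESeq2, 13 with no filter and 61 without AngII 3 and AngII 4, and 0 to 3 leaving out one mouse at a time. DESeq2 called 21 genes in LY against Ctrl and 203 for the difference between the LY effects. The cause was not tested.

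The mean log2 difference of the 6 exporters fell to 0.21 with the GC correction and 0.20 with the replicate block and GC correction in AngII against Ctrl, and was -0.20 and -0.20 in AngII+LY against AngII. In LY against Ctrl leaving out one mouse at a time gave -0.23 to 0.18. The mean of Mt1 and Mt2 in AngII against Ctrl was 1.19 with the GC correction, 1.14 with the replicate block and GC correction and 0.18 without AngII 3 and AngII 4, and in AngII+LY against AngII it was 1.12 without them.

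Among the importers, signs turned at small values. With the GC correction, and with the replicate block and GC correction, the log2 differences in AngII+LY against AngII were -0.31 and -0.30 for Slc39a7, -0.17 and -0.18 for Slc39a11, -0.032 and -0.039 for Slc39a13 and -0.076 and -0.17 for Slc39a14. In AngII against Ctrl they were -0.27 and -0.18 for Slc39a8 and 0.12 and 0.12 for Slc39a11, and Slc39a14 turned to 0.0042 under the second. The newer method gave -0.0044 for Slc39a7. Without AngII 3 and AngII 4, Slc39a7 was -0.36 and Slc39a11 -0.13 in AngII+LY against AngII, and Slc39a11 0.0062 in AngII against Ctrl. Leaving out one mouse at a time gave -0.66 to 0.16 for Slc39a4, -0.12 to 0.30 for Slc39a7, -0.11 to 0.24 for Slc39a11 and -0.24 to 0.34 for Slc39a14 in AngII+LY against AngII, and -0.10 to 0.84 for Slc39a8 and -0.19 to 0.069 for Slc39a9 in AngII against Ctrl.

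Replicate numbers did not pair the mice, since deviations of the 18 same-numbered pairs from their group means correlated at -0.13 to 0.09 and 0 pairs exceeded 0.1. With the replicate block, 0 genes were called in each comparison, as without it. The newer quasi-likelihood method, the fit without the 37 mitochondrial genes and the fit without AngII 3 and AngII 4 were chosen after seeing the data. The older quasi-likelihood setting, planned as an alternative, proved to be the setting of the reported fit. AngII 4, with the lowest depth and high mitochondrial share, limits the AngII estimates, and 2 LY mice limit those of LY.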

Other observations

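Copper genes were read from a list of 9, of which 8 passed the filter. Atp7a, the ATPase that delivers copper to secreted enzymes, had 1249, 1501, 1404 and 1817 normalized counts in AngII and 717, 291, 476.5 and 396 in AngII+LY. Its groups did not overlap, as for 5.66% of all genes in the lower direction. Its log2 difference was -1.67 ± 0.29 with an adjusted p of 0.0568 in edgeR's quasi-likelihood test. Cox17, which carries copper to cytochrome c oxidase, was 0.77 ± 0.20 higher on the log2 scale with an edgeR adjusted p of 0.0668. Its 4 AngII+LY mice lay above all AngII mice, as for 1043 of the 19145 genes tested. Atox1, the cytosolic copper chaperone, gave 0.52 ± 0.17 with an edgeR adjusted p of 0.103. In all, 0 of 8 passed in edgeR, while 4 had an unadjusted p under 0.05 in the higher direction and 1 in the lower, and DESeq2 called 3 and 1. Of all genes, 10.1% had an unadjusted p under 0.05 in the higher and 12.4% in the lower direction, and DESeq2 called 10.9% in either direction. Cox17 was read beside a cardiomyocyte sum that was higher in AngII+LY, and the part of heart muscle in it was not tested. Exons of Atp7a lie at percentile 6.29 of GC content, and all 10 interstitial and fibroblast markers were also lower in AngII+LY than in AngII. The part of base composition or of these cells in the Atp7a difference was not tested.

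Genes of other pathways known to induce metallothioneins were read from 3 lists. They gave no call in edgeR, which called 0% of all genes in each comparison, so nothing is read from that. In AngII+LY against AngII, 8 of 12 glucocorticoid-responsive genes were higher, with a median log2 difference of 0.13 and a smallest adjusted p of 0.0992, and 2 had an unadjusted p under 0.05, both higher, as 10.1% of all genes were, and 1 was called by DESeq2, against 10.9% of all genes. Of 7 NRF2 targets 4 were higher, with a median of 0.02 and a smallest adjusted p of 0.316, and 0 had an unadjusted p under 0.05 or a DESeq2 call. Of 10 acute phase and IL-6 response genes 7 were higher, with a median of 0.31 and a smallest adjusted p of 0.131, and 2 had an unadjusted p under 0.05, both higher, and 2 were called by DESeq2, against the same shares of all genes. After the GC correction 6 of 12, 2 of 7 and 5 of 10 were higher in the same order of lists, with medians of -0.006, -0.09 and 0.06. In AngII against Ctrl, as fitted, 4, 4 and 2 were higher, with medians of -0.14, 0.01 and -0.72. In AngII+LY against Ctrl 6, 4 and 2 were higher, with medians of -0.06, 0.03 and -0.35. The part of these pathways in the differences of Mt1 and Mt2 was not tested.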
